A study of Mus musculus with 6 samples.

Results

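The erythroid genes Slc4a1, Car1, Car2, Alas2, Klf1, Gata1, Rhag and Ermap were followed in livers of mice labelled as newborn, whose mothers had eaten different oils. They are 8 of the 19938 genes that the arrays measured with a probe annotated to that gene alone. Each was read from its brightest such probe, and each of the 8 had exactly 1.

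In the mouse embryo the liver is the main site of red cell production, and the task passes to bone marrow and spleen around and after birth. Erythroid precursors there divide in islands around a central macrophage, switch on a program set by the transcription factors GATA1 and KLF1, fill with heme and hemoglobin, and lay down a membrane rich in anion exchanger and Rh proteins. Carbonic anhydrases in the red cell interconvert carbon dioxide and bicarbonate, and the anion exchanger carries the bicarbonate across the membrane.

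The study used C57Bl6/J mice that were 4 to 5 weeks old at the start, according to the labels. Females received isocaloric diets with 6 g% of oil, which was soybean oil for the Control group, flaxseed oil for the ALA group (alpha-linolenic acid, predominant at 31.6%) and coconut oil for the SFA group (saturated fatty acids, predominant at 48.51%). Oleic acid predominated at 42% in a diet labelled RD, taken here as the control diet. Males ate chow except while mating, when they ate the females' diet. According to the labels, livers of the offspring were collected within a day of birth, and the total RNA of 3 pooled livers was labelled with biotin for each array, with 2 arrays per diet and 6 in all. Whether the duplicates of a diet came from separate animals is not in the labels, nor is the sex or litter of the pups, so p-values measure only the spread between these arrays, which for ALA and SFA may be technical. The control pools differed in Y-linked signal, given below, and so did not hold the same RNA. All values are log2 signals, so a difference of 1 is a doubling, and levels are compared only within a probe.

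Several features of the arrays bear on all results. Median signals over all probes lay between 4.76 and 4.96. The 3 Y-linked genes Eif2s3y, Kdm5d and Uty read 3.45 to 4.42 on Control 1, SFA 1 and SFA 2, and 6.21 to 7.95 on Control 2, ALA 1 and ALA 2, so between ALA and SFA diet and the sex makeup of the pools cannot be told apart. Xist, an RNA of female cells, read 10.67 on Control 1, 8.34 on Control 2, 3.76 and 4.24 on ALA, and 9.46 and 9.51 on SFA. Control 1 thus resembles the SFA arrays in both signals. Control 2 carries Xist and Y-linked signal together, so no control array matches the ALA arrays. Against control, diet and sex makeup can be told apart in part for SFA but not for ALA. Values against 1 control array are given below. Genes of liver age also moved with diet although all pups were labelled as newborn. Of 7 tested fetal liver genes 4 rose on ALA and 6 on SFA, where 5.11% and 6.62% of all tested genes rose. A mean log2 signal of 5 was required for testing. Afp, with a control mean of 4.67, and Igf2bp3, at 4.20 and 4.53 on control, passed it only through the diet arrays. The count therefore leans toward rises, and the list was chosen after the values were seen. Of the 9 fetal genes with a probe, 7 differences were above 0 on each diet. The mean log2 level of the 9 measured was 4.67 to 4.80 on the control arrays, 5.67 to 6.00 on ALA and 5.97 to 6.21 on SFA. Of 13 genes that rise in the liver after birth 3 fell on ALA and 4 on SFA, where 2.82% and 7.15% of all tested genes fell. Of the 13 differences, 4 were above 0 on ALA and 3 on SFA. Hsd3b5, a steroid dehydrogenase gene of the adult male liver, read 10.84 on Control 2 and 4.13 to 4.87 on the other 5 arrays. Cyp7b1, a steroid hydroxylase gene of the same list, read 8.35 and 10.98 on control and 5.39 to 5.68 on the other arrays. The labelled age of the control livers is therefore in doubt, and they may have been older than the diet livers. Nor do these genes bear out the labelled age of the diet livers. Over all 6 arrays Afp, of the fetal list, read 4.52 to 6.44, and Cyp2c29, of the list that rises after birth, 11.59 to 11.86. The age of the livers was not tested. In every difference from control, diet and liver age cannot be told apart.

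Defining erythroid genes were checked first. Of 12 such markers, 10 had a probe of their own, and 4 of those, Gata1, Rhag, Hemgn and Epb42, had a mean below the log2 signal of 5 that was required for testing, with values from 3.07 to 5.01 on all arrays. The adult globin genes share their probes with each other and so have no value here. Signals this low can be background, so the arrays give little evidence on several genes that define erythroid cells. In whole liver, fewer cells of a type and less RNA per cell cannot be told apart.

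Promoter sequence is shown for the members that the RefSeq table of the mouse assembly GRCm38.p6 held, to show which letters of the erythroid program each start site carries. The table gives 250 bases before to 50 after each start and held 5 of the 8 genes, Alas2, Klf1, Gata1, Rhag and Ermap. Stretches of about 60 bases before the start follow, 5′ to 3′ on the gene's strand, with the motif named for each in capitals. An E-box match within the Klf1 stretch is left in lower case. The capitals in Alas2 (chrX:150547304-150547363, plus strand), Klf1 (chr8:84901875-84901934, plus strand), Rhag (chr17:40811091-40811148, plus strand) and Ermap (chr4:119190030-119190089, minus strand) mark the GATA motif, which reads TTATCT or TTATCA because it lies on the opposite strand. Those in Gata1 (chrX:7967911-7967971, minus strand) mark the CACCC box, the kind of motif that KLF1 binds.
Alas2: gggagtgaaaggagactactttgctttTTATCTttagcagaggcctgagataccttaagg
Klf1: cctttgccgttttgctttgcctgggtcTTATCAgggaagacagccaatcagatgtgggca
Rhag: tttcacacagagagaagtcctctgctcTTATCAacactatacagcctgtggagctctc
Ermap: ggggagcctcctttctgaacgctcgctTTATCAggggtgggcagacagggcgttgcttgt
Gata1: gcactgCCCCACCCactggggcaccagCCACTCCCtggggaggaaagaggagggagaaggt

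The match lay 86 bases before the start of Alas2, 80 before that of Klf1, 67 before that of Ermap and 31 before that of Rhag. The GATA motif was searched on both strands as the letters GATA preceded by A or T and followed by A or G, and 4 of the 5 members held 1 match each, where 29.8% of all 32851 promoter windows and 29 of 63 other erythroid genes held at least 1. The CACCC box was searched as CCNCNCCC on both strands and was found in 49.5% of windows, in 53 of 63 other erythroid genes and in 2 of the 5 members. It occurred 4 times in the Alas2 window, where matches may overlap each other, and 3 times in that of Gata1. The E-box CAGCTG or CAGATG, the kind of motif that TAL1 complexes bind, was found in 30.6% of windows, in 22 of 63 other erythroid genes and in 1 of the 5 members, Klf1. CAGTGC, the loop of the iron responsive element through which iron controls translation of the Alas2 messenger, was searched after the start on 1 strand, was found in 1.77% of windows and was not among the first 50 bases of any of the 5. A match is a description of these letters and not of binding.

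Across the members the diets did not move the genes in 1 direction. Slc4a1 and Car2 rose on both diets. Car1, which lies close to Car2 on the same chromosome, was lower on every ALA and SFA array than on both control arrays but missed the threshold. Ermap fell on SFA, Alas2 and Klf1 did not pass, and Gata1 and Rhag were too dim to be tested. With limma over 10977 genes and Benjamini-Hochberg adjusted p below 0.05 as the threshold, 2 of the 6 tested members rose and 0 fell on ALA, where 5.11% of all tested genes rose and 2.82% fell. On SFA 2 rose and 1 fell, where 6.62% rose and 7.15% fell. The comparisons of the 2 diets share their control arrays. The members are too few, and were tested in part because of the groups in which they are bright, for these shares to be read as a pattern of the group.

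**Figure D1:**
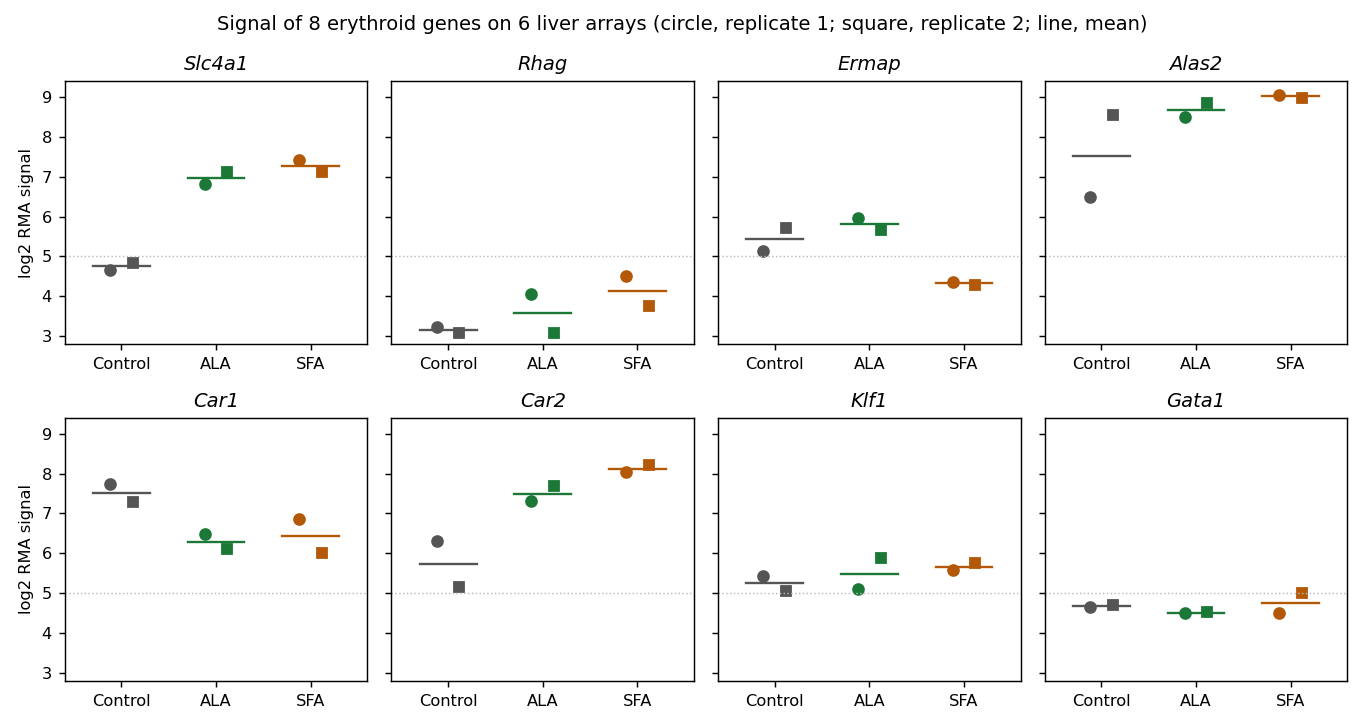
Log2 RMA signal of the 8 genes on the 6 arrays, with diet on the x axis, circles for replicate 1, squares for replicate 2, a line at the mean of each pair and a dotted line at the signal of 5 that a gene's mean had to reach to be tested. Both ALA and both SFA arrays lie above both control arrays for Slc4a1 and Car2 and below both for Car1, and the control arrays of Alas2 lie 2.05 apart.

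The transcription factors came first. Klf1 encodes the CACCC-binding factor that activates adult globin, heme and membrane genes. Its signal was 5.43 and 5.06 on the control arrays, 5.10 and 5.88 on ALA and 5.58 and 5.75 on SFA. The ALA arrays overlapped the controls, and the SFA arrays lay above both, as did 28.6% of tested genes. The differences from control were 0.24 on ALA (SE 0.26, limma adjusted p = 0.628) and 0.42 on SFA (SE 0.26, limma adjusted p = 0.316), neither of which passed. On ALA the sign of the Klf1 difference also turned, to -0.15, when the second ALA array was left out. Gata1, the factor that defines erythroid and megakaryocytic cells, read 4.66 and 4.70 on control, 4.51 and 4.52 on ALA, and 4.49 and 5.01 on SFA. The SFA arrays differed from each other by 0.52, more than the diet means did, and Gata1 was not tested.

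Among 15 other erythroid transcription factors 14 were tested, and none rose on either diet, where 5.11% of all tested genes rose on ALA and 6.62% on SFA. Zfpm1, which encodes the GATA1 partner FOG1, fell on ALA by 0.78 (SE 0.14, limma adjusted p = 0.0227) and on SFA by 0.72 (SE 0.14, limma adjusted p = 0.0208). Cbfa2t3, which encodes the corepressor ETO2, fell on SFA by 0.71 (limma adjusted p = 0.0198) and was at -0.46 on ALA without passing. Tal1, the E-box factor of the same complex, was at 0.04 on ALA and -0.01 on SFA, and Gfi1b, a repressor needed for red cell and platelet formation, at 0.04 and 0.34. Nfe2, a globin gene activator, was below the signal minimum with 4.27 to 5.14. The Zfpm1 call on ALA was lost without Control 1 (-0.64), ALA 1 (-0.81) or ALA 2 (-0.74). It was also lost in a fit to ALA and control alone (limma adjusted p = 0.0502). On SFA the Zfpm1 call was lost without Control 1 (-0.59), SFA 1 (-0.78) or SFA 2 (-0.67). The Cbfa2t3 call was lost without any 1 control or SFA array. With the mean of all its probes the Cbfa2t3 difference on SFA was -0.42 and missed the threshold (limma adjusted p = 0.0942). The median difference of the 14 was 0.04 on ALA and -0.11 on SFA, beside -0.01 and -0.05 over all tested genes.

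Heme synthesis in red cells starts with Alas2, the erythroid form of aminolevulinate synthase. Its signal was 6.48 and 8.54 on the control arrays, 8.49 and 8.85 on ALA and 9.05 and 8.98 on SFA. The control arrays differed by 2.05, while 95% of tested genes differed by less than 0.58 between them, and Control 2 lay within the ALA range. The mean differences of 1.16 on ALA (SE 0.57, limma adjusted p = 0.263) and 1.50 on SFA (SE 0.57, limma adjusted p = 0.121) did not pass. They hang on which control array is used. Against Control 2 alone they were 0.13 and 0.48, and against Control 1 alone 2.18 (limma adjusted p = 0.0134) and 2.53 (limma adjusted p = 0.00994).

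The other steps of heme synthesis went down where they passed. Of 9 tested genes 0 rose and 2 fell on ALA, and 0 rose and 4 fell on SFA, with medians of -0.32 and -0.55. Over all tested genes 2.82% fell on ALA and 7.15% on SFA. Fech encodes ferrochelatase, which inserts the iron, and read 8.49 and 8.41 on control, 7.75 and 7.99 on ALA, and 7.76 and 7.70 on SFA. It fell on ALA by 0.58 (SE 0.13, limma adjusted p = 0.0450) and on SFA by 0.72 (SE 0.13, limma adjusted p = 0.0186). The diet arrays lay below control with no overlap, as did 28.0% of tested genes on ALA and 35.7% on SFA. Alad, the step after Alas2, fell on ALA by 0.61 (limma adjusted p = 0.0271) and was at -0.26 on SFA. Ppox, which makes protoporphyrin, fell on SFA by 0.83 (limma adjusted p = 0.0228), and Tmem14c, a mitochondrial porphyrin transporter gene, by 0.97 (limma adjusted p = 0.0218). The calls of Fech and Alad on ALA were lost without any 1 of the 6 arrays. Both also missed the threshold over all genes without the signal minimum (limma adjusted p = 0.0856 and 0.0554). Fech on ALA missed it with quantile and cyclic loess scaling too (limma adjusted p = 0.0505 and 0.0529). On SFA the calls of Fech and Ppox were lost without any 1 control or SFA array. That of Tmem14c was lost without Control 2 (-0.70), SFA 1 (-0.93) or SFA 2 (-1.01).

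Alas1, the housekeeping form of the first enzyme, is abundant in hepatocytes, and so are the later enzymes of the pathway. It read 10.78 and 10.59 on control, 11.25 and 11.17 on ALA, and 10.21 and 10.05 on SFA. The diets thus lay on opposite sides of control, at 0.53 on ALA (limma adjusted p = 0.0575) and, called, -0.55 on SFA (SE 0.13, limma adjusted p = 0.0396). The direct difference, ALA minus SFA, was 1.08 (SE 0.13, limma adjusted p = 0.0383), higher on both ALA arrays, where 1.09% of all tested genes were called higher. In a fit to the 2 diets alone that difference is unchanged but missed the threshold (limma adjusted p = 0.0570). It also missed the threshold without any 1 of the 6 arrays. The difference was 1.04 without ALA 1, 1.11 without ALA 2, 1.16 without SFA 1 and 1.00 without SFA 2. The SFA call against control was also lost without any 1 of the 6 arrays, with -0.46 without Control 1 and -0.64 without Control 2. Markers of hepatocytes stood at a mean log2 level of 12.1 to 12.3 on all arrays, with 1 of 11 called on ALA and 0 on SFA.

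Slc4a1 encodes band 3, the anion exchanger that is the most abundant protein of the red cell membrane. Its signal was 4.66 and 4.84 on the control arrays, 6.83 and 7.11 on ALA and 7.42 and 7.13 on SFA. Both diets lay above control with no overlap, as did 27.0% of tested genes on ALA and 28.6% on SFA. The SFA arrays lay above the ALA arrays by a small margin. Slc4a1 rose by 2.22 on ALA, 4.66-fold (SE 0.16, limma adjusted p = 0.00246), and by 2.52 on SFA, 5.74-fold (SE 0.16, limma adjusted p = 0.00108), while the diets differed by -0.30 from each other (limma adjusted p = 0.322). The control mean of 4.75 lay under the signal minimum, so the gene was tested only because of the diet arrays, and the fold may understate the change. Tested over all genes without the minimum it had limma adjusted p = 0.00216 and 0.000664. Against Control 2 alone the ALA difference was 2.13. That array carries Y-linked signal as the ALA arrays do but also Xist, so it does not match them in sex makeup. Against Control 1 alone, which has Xist and lacks Y-linked signal as the SFA arrays do, the SFA difference was 2.61. Both calls held under all 15 alternative settings, which are not all separate.

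Rhag, the Rh-associated glycoprotein through which gas and ammonium are thought to pass, read 3.22 and 3.07 on control, 4.06 and 3.09 on ALA, and 4.52 and 3.75 on SFA. Both SFA arrays lay above both control arrays, but all 6 values were under the signal minimum, the ALA arrays differed by 0.97, and Rhag was not tested.

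Ermap encodes an erythroid membrane protein of the butyrophilin-like family that carries the Scianna blood group. It read 5.13 and 5.72 on control, 5.98 and 5.67 on ALA, and 4.37 and 4.29 on SFA. Both SFA arrays lay below the other 4, and ALA overlapped control. On SFA 35.7% of tested genes lay below control with no overlap. Ermap fell on SFA by 1.10, 2.14-fold (SE 0.21, limma adjusted p = 0.0209), and was at 0.40 on ALA (limma adjusted p = 0.300). Without Control 2 the SFA difference was -0.80 (limma adjusted p = 0.0808), and without SFA 1 or SFA 2 the call was also lost (limma adjusted p = 0.0901 and 0.104).

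Ermap was also the 1 member called between the diets. It was higher on ALA than on SFA by 1.49, 2.82-fold (SE 0.21, limma adjusted p = 0.0392), where 1.53% of tested genes were called, 1.09% higher and 0.437% lower. Slc4a1, Car2 and Alas2 lay lower on both ALA arrays than on both SFA arrays, as did 24.4% of tested genes, and Ermap lay higher, as did 31.4%. The call held in 3 of 14 alternative settings and was lost without any 1 of the 6 arrays (limma adjusted p from 0.0533 to 0.191). Its SFA mean of 4.33 was under the signal minimum, and over all genes without that minimum the limma adjusted p was 0.0524. By the moderated F test of any difference between diets 3 members were called, Slc4a1, Car2 and Ermap, where 13.5% of tested genes were.

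**Figure D2:**
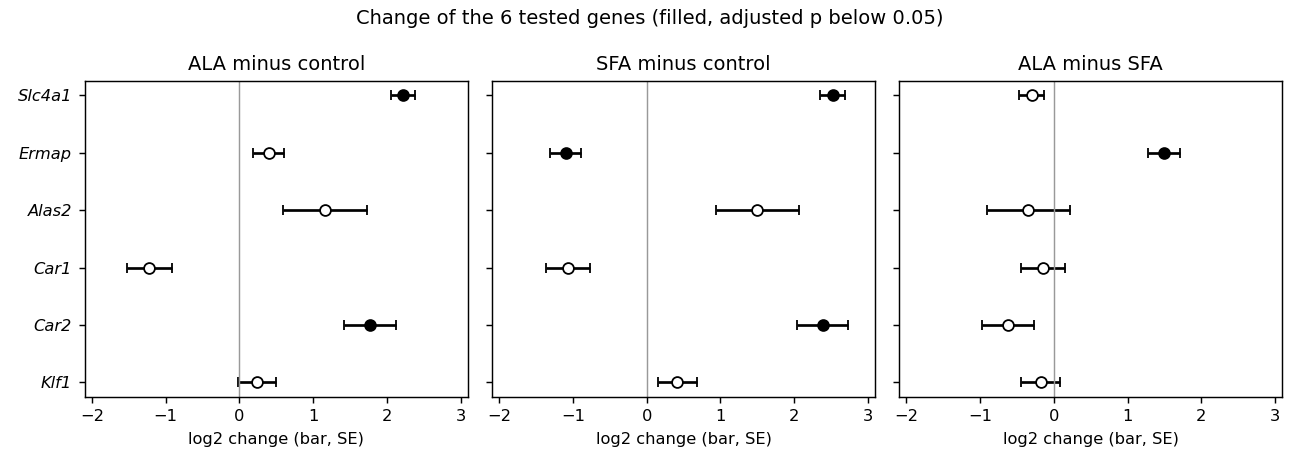
Log2 difference of the 6 tested genes in each comparison of diets, with bars of 1 SE from the limma fit to 2 arrays per group and filled points at a Benjamini-Hochberg adjusted p below 0.05. Slc4a1 and Car2 are filled on the right in both comparisons with control, Car1 is open on the left in both, and Ermap is filled at -1.10 for SFA minus control and at 1.49 for ALA minus SFA.

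Of 22 other red cell membrane and skeleton genes 12 were tested. On ALA 1 rose and 1 fell, and on SFA 3 rose and 0 fell, with medians of 0.03 and 0.15. Over all tested genes 5.11% rose and 2.82% fell on ALA, and 6.62% rose and 7.15% fell on SFA. Slc2a1, the glucose transporter of red cells and other growing cells, rose by 1.12 on ALA (SE 0.18, limma adjusted p = 0.0155) and 0.97 on SFA (SE 0.18, limma adjusted p = 0.0186). The ALA call was lost without ALA 1 (1.08) or ALA 2 (1.17). The SFA call was lost without Control 1 (0.71), SFA 1 (0.96) or SFA 2 (0.98). Gypc, a glycophorin gene, rose on SFA by 1.17 (limma adjusted p = 0.0167), a call lost without SFA 1 (1.13) or SFA 2 (1.21). Slc14a1, the red cell urea transporter gene, rose on SFA by 1.05 (limma adjusted p = 0.0417). That call was lost without Control 2 (0.64), SFA 1 (1.13) or SFA 2 (0.97). The control mean of Slc14a1, 4.69, was under the signal minimum, so it was tested only because of the diet arrays, and over all genes without that minimum its call was lost (limma adjusted p = 0.0513). Xk, a membrane protein gene of the Kell complex, fell on ALA by 0.74 (limma adjusted p = 0.0453). That call was lost without any 1 control or ALA array, and over all genes without the signal minimum (limma adjusted p = 0.0700). Ank1, the ankyrin that ties band 3 to the skeleton, was at -0.07 on ALA and -0.17 on SFA and did not pass. Epb42, whose protein binds band 3 and ankyrin, was below the signal minimum with 4.21 and 3.84 on control, 4.63 and 4.31 on ALA, and 4.91 and 4.82 on SFA.

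Car1 and Car2 encode the cytosolic carbonic anhydrases of the red cell. Car1 read 7.74 and 7.28 on the control arrays, 6.48 and 6.10 on ALA and 6.87 and 6.01 on SFA. It was lower on all 4 diet arrays than on both control arrays, with no overlap, as were 28.0% of tested genes on ALA and 35.7% on SFA. The differences were -1.22 on ALA (SE 0.30, limma adjusted p = 0.0541) and -1.07 on SFA (SE 0.30, limma adjusted p = 0.0579), which just missed the threshold. Against Control 1 alone they were -1.45 and -1.30 and against Control 2 alone -0.99 and -0.84, all of which missed it (limma adjusted p from 0.116 to 0.218). Without SFA 2 the SFA difference was -0.64. Alternative settings, not all of them separate, placed Car1 past the threshold in 7 of 15 cases on ALA and 2 of 15 on SFA.

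Car2 read 6.32 and 5.15 on the control arrays, 7.31 and 7.69 on ALA and 8.03 and 8.21 on SFA. All diet arrays lay above both control arrays, as did 27.0% of tested genes on ALA and 28.6% on SFA, and both SFA arrays lay above both ALA arrays. Car2 rose by 1.77 on ALA, 3.40-fold (SE 0.35, limma adjusted p = 0.0303), and by 2.39 on SFA, 5.23-fold (SE 0.35, limma adjusted p = 0.00938). The diets differed by -0.62 (limma adjusted p = 0.336). The control arrays of Car2 were 1.17 apart. Without Control 2 the increase was 1.18 on ALA (limma adjusted p = 0.0551) and 1.80 on SFA (limma adjusted p = 0.0241), and without Control 1 it was 2.35 and 2.97. The ALA call was also lost without ALA 1, ALA 2, SFA 1 or SFA 2 (limma adjusted p from 0.0607 to 0.143), and the SFA call without SFA 1 or SFA 2 (limma adjusted p = 0.0548 and 0.0604).

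Car2 is also expressed outside the red cell line, in bile duct and other epithelia, so the values of other cells are set beside it. Over all tested genes 5.11% rose on ALA and 6.62% on SFA. Of 5 tested bile duct genes 1 rose on ALA, the keratin gene Krt19, and 0 on SFA. Of 13 genes of macrophages and erythroblastic islands 10 rose on ALA and 7 on SFA, and their mean log2 level was 6.95 to 7.00 on control, 7.79 to 8.16 on ALA and 7.63 to 7.69 on SFA. The part of these cells in the Car2 result was not tested.

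In the mouse genome Car13, Car1, Car3 and Car2 lie next to each other in that order, by RefSeq's annotation of protein-coding genes. Car3, the isoform of muscle, fat and liver, read 12.20 and 12.18 on control, 11.00 and 10.94 on ALA, and 11.30 and 11.36 on SFA. It fell on ALA by 1.21 (SE 0.12, limma adjusted p = 0.00423) and on SFA by 0.85 (SE 0.12, limma adjusted p = 0.00758). Its diet arrays lay below control without overlap, as did 28.0% of tested genes on ALA and 35.7% on SFA. Within this cluster Car3 thus fell and Car1 was lower where Car2, the gene next to Car3, rose. Car13 was below the signal minimum at 4.41 and 4.07 on control, 4.49 and 4.31 on ALA, and 4.80 and 4.67 on SFA.

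Of the carbonic anhydrase genes beyond Car1 and Car2, 7 of 14 were tested. Car14, a membrane-bound form, rose by 1.05 on ALA (limma adjusted p = 0.0329) and 1.10 on SFA (limma adjusted p = 0.0220). Car8, which lacks enzyme activity, fell on ALA by 0.56 (limma adjusted p = 0.0481) and was at -0.23 on SFA. The mitochondrial forms Car5a and Car5b were at -0.01 and -0.18 on ALA and at -0.16 and 0.46 on SFA, and neither passed. Car7 and Car11 did not pass either, at -0.05 and -0.33 on ALA and -0.12 and -0.50 on SFA.

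**Figure D3:**
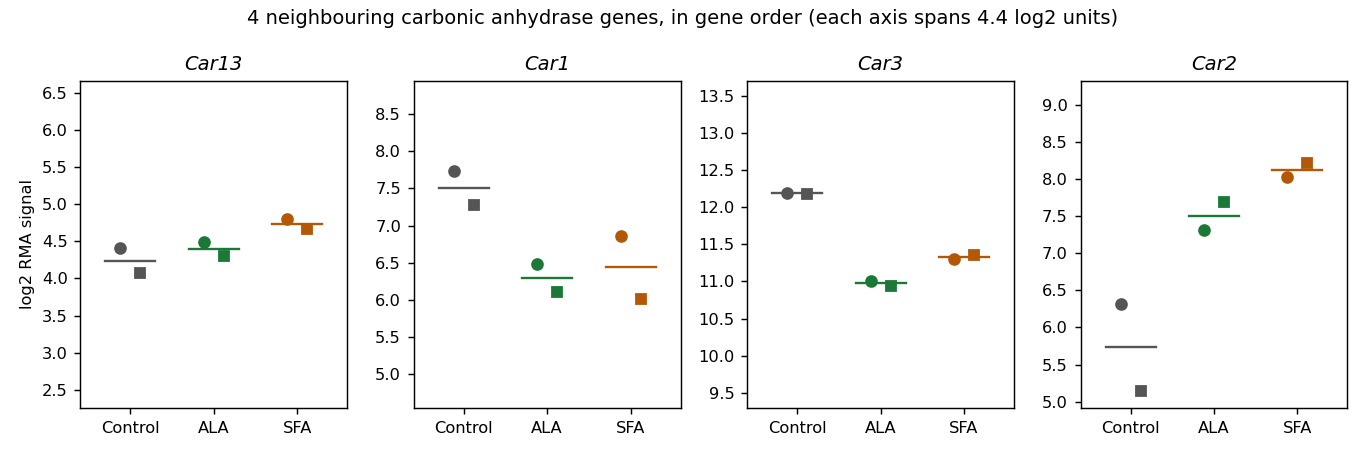
Log2 RMA signal of the 4 neighbouring carbonic anhydrase genes on the 6 arrays, in gene order from left to right, with circles for replicate 1, squares for replicate 2 and a line at each mean. Each axis covers the same span in log2 units but starts at its own level, and the diet arrays lie below the controls for Car1 and Car3 and above them for Car2.

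Among receptors and iron uptake genes Tfrc stood out. Tfrc encodes the transferrin receptor, through which erythroblasts and other dividing cells take up iron. It read 5.70 and 5.74 on control, 8.23 and 7.54 on ALA, and 8.29 and 8.18 on SFA. It rose by 2.17 on ALA, 4.49-fold (SE 0.22, limma adjusted p = 0.00460), and by 2.51 on SFA, 5.71-fold (SE 0.22, limma adjusted p = 0.00284), and both calls held under all 15 alternative settings. The other 11 tested genes of the list were not called. Epor, the erythropoietin receptor gene, was at -0.17 on ALA and 0.14 on SFA, Kit, the stem cell factor receptor gene of early precursors, at 0.57 and -0.03, and Tfr2, the hepatocyte and erythroid iron sensor gene, at -0.05 and -0.45.

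The systemic signals on erythropoiesis were read in the same livers. Hamp, which encodes the hormone hepcidin that blocks iron release, read 11.78 and 11.61 on control, 5.73 and 4.52 on ALA, and 3.83 and 4.85 on SFA. It fell by 6.57 on ALA (SE 0.44, limma adjusted p = 0.00239) and by 7.35 on SFA (SE 0.44, limma adjusted p = 0.000774), and the low arrays lie near or under the signal minimum. Its copy Hamp2, which is similar in sequence and may share signal, fell by 3.17 and 4.23. Erfe, the erythroblast hormone gene that lowers hepcidin, was at 0.02 and -0.38 and did not pass, and Epo, the erythropoietin gene, lay at 3.35 to 3.75 on all arrays and was not tested. The other 6 tested genes of this list of 9 were not called.

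Of the embryonic globins only Hba-x passed the signal minimum, and at -0.42 on ALA and -0.23 on SFA it was not called. Hbb-bh1, Hbb-bh2 and Hbb-y lay between 3.07 and 4.15 on all arrays. Genes of late maturation, which serve organelle loss and red cell metabolism, were mixed. Slc43a1, an amino acid transporter gene of red cells and liver, rose by 2.20 on ALA (SE 0.21, limma adjusted p = 0.00423) and 1.79 on SFA (SE 0.21, limma adjusted p = 0.00522), and both calls held under all 15 alternative settings. Bpgm, the enzyme that sets hemoglobin's oxygen affinity through bisphosphoglycerate, rose on SFA by 1.09 (limma adjusted p = 0.0120), and Ube2o, a ubiquitin ligase that clears proteins from reticulocytes, by 0.58 (limma adjusted p = 0.0339). Bpgm was at 0.69 and Ube2o at 0.54 on ALA, where neither passed. Blvrb, biliverdin reductase B, fell by 0.66 on ALA (limma adjusted p = 0.0372) and 0.65 on SFA (limma adjusted p = 0.0299). The Blvrb call on ALA was lost without any 1 of the 6 arrays. On SFA the Blvrb and Ube2o calls were lost without any 1 control or SFA array, and that of Bpgm without Control 2 or SFA 1. Over all genes without the signal minimum, Blvrb on ALA and Ube2o on SFA also missed the threshold (limma adjusted p = 0.0656 and 0.0573).

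Over all 6 lists of other erythroid genes 61 of 85 were tested. On ALA 3 rose and 5 fell, 13.1% of the genes where 7.93% of all tested genes were called. On SFA 7 rose and 7 fell, 23.0% where 13.8% were called. The signs were mixed, with 25 differences above 0 and 36 below on ALA and a median of -0.08, and a median of -0.04 on SFA. These counts moved with the arrays in the fit. Leaving out 1 array gave 2 to 7 calls on ALA and 2 to 12 on SFA, with 4 and 5 without Control 2, 2 on ALA without either ALA array, 7 on SFA without Control 1, and 2 and 3 on SFA without SFA 1 and SFA 2. Of the genes called in these lists, Tfrc and Slc43a1 alone kept every call against control under all 15 alternative settings.

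**Figure D4:**
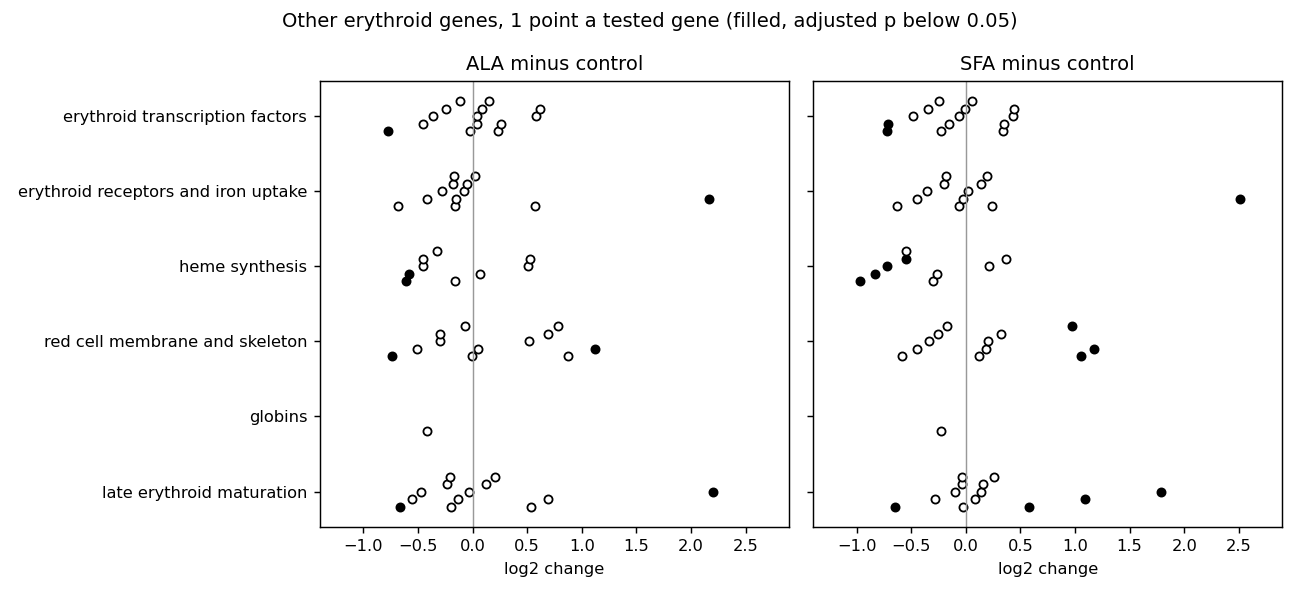
Log2 difference from control of the 61 other tested erythroid genes by list, 1 point a gene, for ALA at left and SFA at right, filled at a Benjamini-Hochberg adjusted p below 0.05 in limma. The points lie on both sides of 0 in every list except the globins, which have 1 gene, with Tfrc and Slc43a1 farthest to the right and filled points of heme synthesis only to the left.

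Other cell types and cell division moved with diet beside these genes. Their counts stand beside 5.11% of all tested genes that rose on ALA and 6.62% on SFA. Of 16 tested cell cycle genes 9 rose on ALA and 13 on SFA, with medians of 1.59 and 2.45. Some of them, such as Ccna2, Bub1b and Aurkb with control means of 4.44, 4.57 and 4.99, were tested only because of the diet arrays. The counts therefore lean toward rises. All 17 with a probe had differences above 0 on both diets. The mean level of the 17 was 4.92 to 4.93 on control, 5.80 to 6.92 on ALA and 7.05 to 7.18 on SFA. Erythroblasts, hepatocytes and other cells divide in the newborn liver, and the list does not tell them apart. Megakaryocytes share GATA1 with red cells, and of 7 tested genes of theirs 3 rose on each diet, the platelet chemokine genes Pf4 and Ppbp and the integrin gene Itgb3. Of 5 granulocyte genes 0 rose on ALA and 2 on SFA, and of 5 genes of hematopoietic progenitors 1 rose on each, Cd34. Neither of the 2 tested genes of mast cells and eosinophils was called. The part of these cells in the values of the members was not tested.

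The 10 genes whose pattern was most like the mean of the 8 members, each centred on its own mean, were Cpd, Igf2bp3, H2aw, Rbm22, Rdh5, Pea15a, Gpx8, Fundc2, Tgfb1 and Tagln2. Their Pearson correlation with that mean over the 6 arrays was 0.987 to 0.999, where the points share the arrays and their diets. The mean lay at -0.48 and -0.39 on control, 0.15 and 0.17 on ALA and 0.35 and 0.20 on SFA. It includes Gata1 and Rhag, which were too dim to be tested. The members did not share 1 pattern. Between pairs of them r ran from 0.915 for Slc4a1 and Car2 to -0.841 for Slc4a1 and Car1, so likeness to the mean is not likeness to each member. Igf2bp3 is 1 of the fetal liver genes above, and none of the 10 is in the erythroid lists. The erythroid gene nearest to the mean was Tfrc, at rank 47 of 10971 with r = 0.973, followed by Bpgm at rank 154 with r = 0.952. At the other end lay Blvrb at rank 10864 with r = -0.955, Fech at rank 10859 with r = -0.954, Cbfa2t3 with r = -0.950 and Zfpm1 with r = -0.946.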

How the data were processed

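The deposited table holds log2 signals, made by the authors with RMA (robust multi-array average). The submitters' processing notes also name Partek 6.6. The log base is read from the range of 1.98 to 13.1, and the RMA settings are not given in the sources used here. Of 35556 probes 21789 carry 1 gene symbol in the platform annotation, 1621 several and 12146 none. Only the first kind was used, with the brightest probe per gene. In R 4.3.3 with limma 3.58.1, a mean per diet was fitted to all 6 arrays (3 residual degrees of freedom) for the 10977 genes with a mean log2 signal of at least 5, moderated by eBayes and adjusted by Benjamini-Hochberg over those genes. Tests are two-sided, and errors are standard errors with n = 2 per group. The procedure was tested on simulated data. Members, lists, the rule for named genes (all members, at most 4 called genes per list and comparison, and a set of common erythroid genes) and alternatives were chosen with earlier results of these data known. The lists of fetal liver and of liver after birth were added after the values were seen. The number of arrays limits the precision. The duplicates' numbers did not pair the arrays.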

Additional observations from a re-analysis of the deposited data

How the results depend on the processing

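Alternatives were no filter or a mean of at least 6, 3 other scalings, the mean of a gene's probes, a fit to the 2 groups compared, trended robust moderation, the replicate block and leaving out each array. They are not all separate. Leaving out an array of the group not compared gave the same result as the fit to the 2 groups. The mean of a gene's probes left the values of the members as they were, since each has 1 probe. Of 264 values of the members under them, 231 kept their side of the threshold, 22 lost it and 11 gained it, and 0 called values changed sign. The members called on ALA numbered 1 to 2 without 1 array, on SFA 1 to 3, between the diets 0 and by the F test 1 to 4. The call between the diets (Ermap) was 0 without the filter, at a mean of at least 6 (where Ermap was not tested), with quantile or cyclic loess scaling, with the 2 groups alone and with the replicate block. The other erythroid genes called on ALA numbered 4 without the filter, 4 with the 2 groups alone, 14 with trended moderation and 2 to 7 without 1 array. On SFA they numbered 2 to 12 without 1 array. Between the diets they numbered 0 with the 2 groups alone, 2 with trended moderation, 0 with the replicate block and 0 without any 1 array. The cause was not tested.

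Same-numbered arrays did not deviate together (r from -0.03 to 0.02), and with the replicate block 3 members were called on ALA, 4 on SFA, 7 and 15 of the other erythroid genes, and 4 members by the F test. Centring on the 75th percentile turned 727 higher and 785 lower calls of all genes on SFA into 1004 and 515, and moved the median between the diets from 0.04 to -0.07. It ended no call of a member.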
